A study of Mus musculus with 2 samples.

Results

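The nuclei described here are fibroblast nuclei of the lactating mouse mammary fat pad in which no transcript of Dpp4, Pi16 or Cd55 was found. A nucleus was taken when at least 4 of 8 fibroblast genes (Pdgfra, Lama2, Abca8a, Itgbl1, Tnxb, Bicc1, Adgrd1 and Fbn1) had a unique molecular identifier (UMI, a tag that counts 1 captured RNA molecule). It could hold at most 1 UMI summed over the endothelial gene Pecam1, the leukocyte gene Ptprc, the myoepithelial gene Trp63 and the adipocyte gene Adipoq, and 0 UMIs of Dpp4, Pi16 and Cd55. The rule found 734 nuclei among 20854 nuclei kept, or 3.52%. They are set against 19032 non-fibroblast nuclei, which had fewer than 4 of the 8 genes. Where it helps, they are also set against the 960 fibroblast nuclei that met the same rule but held a UMI of Dpp4, Pi16 or Cd55. The members were 43.3% of these 1694 fibroblast nuclei. A further 128 nuclei with 4 or more of the 8 genes had over 1 UMI of the other types' genes and are in none of these classes.

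Fibroblasts of the mammary fat pad make the collagens, laminins and proteoglycans in which ducts, alveoli, vessels and adipocytes lie. In mouse subcutaneous fat, cells with Dpp4 and Pi16 are known as interstitial progenitors near the outer fascia, and cells without them include committed preadipocytes, which turn on Pparg as they become adipocytes. During lactation most of the pad is filled by milk-producing luminal cells, whose casein transcripts are so abundant that free copies reach the nuclei of other cells.

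Tissue came from the inguinal fat pads of 8 lactating dams on day 11 after birth, with the lymph nodes taken out. There were 4 dams labelled as an adipocyte-specific knockout of the oxytocin receptor gene Oxtr (Oxtr-KO) and 4 dams with the floxed Oxtr gene, whose hashtags are named WT; WT was taken as the floxed group because the labels give no other. All dams were bred at 8 weeks of age on chow, and no source used here gives the Cre line behind the deletion. The labels list litters of 5 pups with 1 litter of 3, not tied to an animal, so litter size was not tested. Nuclei of all animals were pooled in 1 RNA library, and a second library counted hashtags, DNA tags that mark the animal of origin. The deletion is labelled for adipocytes, so Oxtr in fibroblast nuclei does not check it. Oxtr in members had 0, 15, 21.0 and 27.1 CPM (the UMIs of a gene scaled to a common total of UMIs) in Oxtr-KO animals 1 to 4, against 0, 0, 0 and 7.52 CPM in WT animals 1 to 4. These levels rest on 9 UMIs in all, too few for a comparison.

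The RNA library held 107910356 UMIs over 21805 barcodes, with a median of 4212 UMIs. Members were shallow, with a median of 2625 UMIs and 1370.5 genes, against 3409 UMIs and 1670.5 genes in Dpp4, Pi16 or Cd55 nuclei and 4483 UMIs and 1859 genes in non-fibroblast nuclei. Exactly 1 named animal was called for 254 members (34.6%, Wilson 95% binomial interval 31.3 to 38.1%, for counting error only), while 428 members (58.3%) had no called hashtag and 50 (6.81%) had more than 1. Among non-fibroblast nuclei, 64.8% had 1 named animal and 24.9% had none. The gap was also there at matched depth: between 2000 and 4000 UMIs no hashtag was called for 59.8% of 423 members, 65.1% of 450 Dpp4, Pi16 or Cd55 nuclei and 33.1% of 5170 non-fibroblast nuclei. All values per animal below therefore come from these 254 members and their counterparts. WT 2 had the fewest members, 21 with 74649 UMIs, and the lowest score on the second principal component of member levels (-24.8, with the other animals between 0.519 and 7.74).

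The 8 genes of the rule set the members apart by construction, so their values only describe the choice. Lama2, the laminin chain of muscle and fibroblast basement membranes, had a UMI in 98.9% of members and 4.94% of non-fibroblast nuclei. Pdgfra, the receptor that marks fibroblasts in most tissues, had one in 77.1% of members and 1.16% of non-fibroblast nuclei. Bicc1, an RNA-binding protein gene, was found in 92.9% against 3.81%, and the transporter gene Abca8a in 83.9% against 2.02%. The integrin-like gene Itgbl1 stood at 82.0% against 1.88%, the microfibril gene Fbn1 at 72.6% against 5.86%, and tenascin-X (Tnxb) at 67.8% against 1.39%. Adgrd1, an adhesion G protein-coupled receptor, had the lowest share in members, 46.3% against 0.799%. Tnxb, Fbn1 and Adgrd1 were each found in a smaller share of members than of Dpp4, Pi16 or Cd55 nuclei (79.5%, 88.5% and 74.8%), and the other 5 genes in a larger share.

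Nuclei near the threshold were shallower and held a larger share of milk protein UMIs; UMIs of the 8 genes rise with the number of them found by construction. The 77 members with exactly 4 of the 8 genes had a median of 1879 UMIs, a mean of 13.7 UMIs of the 8 genes and 14.4% milk protein UMIs. The 117 members with all 8 genes had 3788 UMIs, 52.0 UMIs of the 8 genes and 9.28% milk protein UMIs. Just outside, 67 nuclei with 3 genes and the same other conditions had 1223 UMIs, 6.93 UMIs of the 8 genes and 25.6% milk protein UMIs. UMIs of Dpp4, Pi16 and Cd55 were not confined to fibroblast nuclei: 36.6% of non-fibroblast nuclei held a UMI of at least 1 of the 3, with Dpp4 in 25.6%, Cd55 in 16.3% and Pi16 in 0.956%. Whether these came from expression or from free RNA was not tested. The 306 fibroblast nuclei with exactly 1 such UMI lay between the members and the 654 with 2 or more. Sema3c, a secreted guidance ligand known from Dpp4 progenitors, stood at 36.3 CPM in members, 94.5 CPM with 1 UMI and 812 CPM with 2 or more. Slit2, a secreted ligand of Robo receptors, ran the other way, with 798, 504 and 259 CPM.

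Levels below are CPM of the UMIs summed over an animal's members, given as the lowest, median and highest of the 8 animals, and a log2 ratio compares members with non-fibroblast nuclei of the same animal after adding 1 CPM to both. A gene was called higher when this ratio was at least 1 in every animal and lower when it was at most -1 in every animal. Of 3582 genes with at least 50 UMIs over the members with 1 named animal, 591 (16.5%) were higher and 31 (0.865%) were lower. The median ratio was 0.19. UMI counts of single genes in members below have the same scope, while shares of nuclei with a UMI are over all members. The minimum of 50 UMIs keeps genes that are high in members and drops genes that are low there, and the members were chosen on related genes, so the counts describe the nuclei and no test was run.

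The genes ranked against non-fibroblast nuclei left out the rule's genes and symbols that are Gm with a number or end in Rik. Among the others called higher, Ifi205, an interferon-inducible gene of the HIN-200 family, had the highest ratio. It stood at 421, 538 and 750 CPM in members (lowest, median and highest animal), against 1.04, 1.58 and 3.01 CPM in non-fibroblast nuclei, a median log2 ratio of 7.74 (7.16 to 8.52). A UMI of Ifi205 was found in 70.6% of members and 1.03% of non-fibroblast nuclei. Every animal's members lay above every animal's non-fibroblast nuclei for this gene. Rgs6, a regulator of G protein signalling, had 239, 592 and 714 CPM in members against 1.04, 2.14 and 3.51 CPM, a ratio of 7.65 (5.74 to 8.22). Slit2 had 414, 741 and 888 CPM in members against 2.28, 3.49 and 6.14 CPM, a ratio of 7.34 (6.52 to 7.94), and was found in 69.3% of members and 2.14% of non-fibroblast nuclei. The classes did not overlap for either gene. Adamts12, a secreted metalloprotease, was among the most abundant, with 1724, 2125 and 2834 CPM in members against 10.3, 14.9 and 27.9 CPM, a ratio of 7.02, and a UMI in 92.8% of members.

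The next genes by ratio cover matrix, adhesion, transcription and signalling. They include the collagen Col5a3 (341, 577 and 760 CPM, against 1.91, 2.87 and 5.05 CPM in non-fibroblast nuclei), the corepressor Runx1t1 (ratio 6.94), the adhesion protein Lsamp (6.90) and Egflam, a matrix protein that binds dystroglycan (150, 273 and 402 CPM, against 0.65, 1.09 and 2.16 CPM). The mesenchymal cadherin Cdh11 (6.69), the matricellular protein Smoc2 (6.69), the transcription factors Foxp2 (6.69) and Tshz3 (6.63), the splicing factor Nova1 (6.68) and the orphan receptor Gpr176 (6.66) followed. The glutamate receptor subunit Gria3 (6.66), the protocadherin Dchs2 (6.58), the TEAD cofactor Vgll3 (6.55), the GTPase-activating protein Arhgap6 (6.53), the Slit receptor Robo2 (6.49) and the transporter Abca6 (6.49) were close behind. Aldh1a1, which makes retinoic acid from retinaldehyde, had 367, 598 and 1196 CPM in members against 3.46, 5.60 and 17.1 CPM, a ratio of 6.47. Gxylt2, Tmeff2 and Galnt17 stood at 6.47, 6.45 and 6.40.

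Some long noncoding RNAs were also among the 30. Meg3 had 643, 1402 and 1658 CPM in members against 5.24, 12.7 and 19.1 CPM in non-fibroblast nuclei, a ratio of 6.72, and Rian, from the same imprinted locus, had a ratio of 6.38. Dnm3os, which carries microRNA precursors, had a ratio of 6.48. The reading of some genes depended on which nuclei stood on the other side. Over all nuclei, with or without a hashtag, the ratio was 2.87 for Meg3, 1.87 for Lsamp and 3.65 for Rian. It was 4.75 for Gria3 and 4.64 for Galnt17. All of these remained higher in members than in non-fibroblast nuclei.

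**Figure D1:**
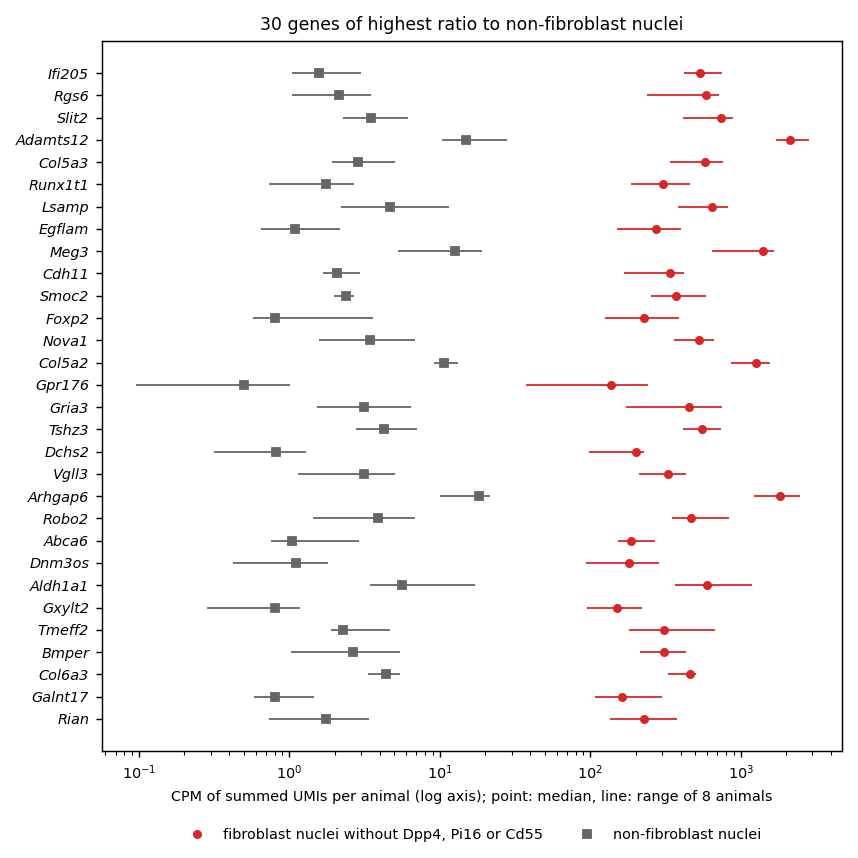
Levels of the 30 genes of highest ratio outside the rule, without Gm-number and Rik symbols, in CPM on a log axis. Members are in red and non-fibroblast nuclei in grey, with points for medians and lines for the range of 8 animals. For Ifi205 the members run between 421 and 750 CPM and the non-fibroblast nuclei between 1.04 and 3.01 CPM, and the ranges of the classes lie apart for the other genes too.

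The fibroblast marker list holds the 8 genes of the rule and 6 others, Dcn, Lum, Col1a1, Col1a2, Col3a1 and Ebf2, and these 6 were all measured and higher in members. They are not independent of the choice, since the rule took nuclei with related genes. Every measured fibrillar or associated collagen was higher, 12 of the 12 measured of 17 listed, with a median ratio of 5.98. Col3a1, which pairs with type I collagen in loose connective tissue, had 1479, 2173 and 2792 CPM in members against a median of 29.6 CPM (ratio 6.09). Col1a1, a chain of type I collagen, had 335, 453 and 624 CPM against 9.99 CPM (5.37), and Col5a2, which starts fibril assembly, had 856, 1259 and 1564 CPM against 10.7 CPM (6.67). Col6a3, of the beaded filaments near basement membranes, had a ratio of 6.42. Col15a1, known from basement membrane zones and preadipocytes, varied more between animals, with 134, 277 and 588 CPM (6.16), as did Col14a1, a fibril-associated collagen, with 45.1, 115 and 429 CPM (3.15).

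Basement membrane genes were high as well. Of 10 measured, 9 were higher in members, and the list of 19 summed to 5729, 8001 and 10537 CPM, with Lama2, a gene of the rule, as the main part. Lama2 alone had 2940, 4062 and 5489 CPM in members, against a median of 8.78 CPM (ratio 8.59). Outside the rule, Col4a1 and Col4a2, the main type IV collagen chains, had 712, 1012 and 1207 CPM against 17.9 CPM (5.72), and 383, 522 and 756 CPM against 17.2 CPM (4.90). Nid1, which links laminin to type IV collagen, had a ratio of 5.37, and its paralog Nid2 did not meet the call, with 26.8, 59.7 and 90.3 CPM in members and a median of 49.4 CPM in non-fibroblast nuclei (0.29).

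Elastic fibre and microfibril genes were higher in members for all 10 measured of 21, with a median ratio of 5.47; Fbn1 and Tnxb of this list are also in the rule. Fbn2, a fibrillin of newly laid microfibrils, had 82.7, 175 and 293 CPM against 1.29 CPM (5.84). Fbln2 and the microfibril protein Mfap5 had ratios of 5.73 and 5.56. Elastin itself (Eln) was the most uneven of those named, with 80.4, 143 and 536 CPM (2.11). Proteoglycan and matricellular genes were higher for 14 of 15 measured. The small leucine-rich proteoglycans Dcn and Lum, which bind collagen fibrils, had 563, 1064 and 1447 CPM against 19.2 CPM (5.74) and 126, 158 and 188 CPM against 2.98 CPM (5.33). Lum was the steadier of the pair across animals. Abi3bp had a ratio of 5.51 and periostin (Postn) one of 3.43. Tenascin-C (Tnc), a matrix protein of remodelling tissue, was the exception, with 31.5, 91.0 and 251 CPM in members and 215 CPM in non-fibroblast nuclei (-1.07, not called).

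Among matrix proteases and their inhibitors 14 of 17 measured genes were higher in members. Besides Adamts12, the serine protease Htra3 had 153, 260 and 429 CPM against 2.40 CPM (6.02), and the matrix metalloprotease Mmp3 ranged widely, with 83.8, 243 and 705 CPM against 3.01 CPM (5.86). Mmp16, a membrane-bound metalloprotease, had a ratio of 5.73. Timp3, an inhibitor that stays bound to the matrix, had 105, 241 and 630 CPM against 13.3 CPM (4.15). The aggrecanase Adamts5 did not meet the call, with 653, 921 and 1730 CPM in members and 304 CPM in non-fibroblast nuclei (1.61), nor did Timp2 and Adamts9.

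Ligand genes were more mixed than matrix genes. Of 13 measured ligands 4 were higher and 1 was lower, against 16.5% and 0.865% of all genes. Hgf, which acts on Met of epithelial cells, had 117, 161 and 268 CPM in members against 3.51 CPM (5.05), with no overlap between the classes. The chemokine Cxcl12 (87.2 CPM at the median against 2.28 CPM; 4.67), the lymphatic growth factor Vegfc (95.1 against 4.55 CPM; 4.17) and Fgf10, a mesenchymal ligand needed for mammary budding in mouse embryos (109 against 7.01 CPM; 3.77), were the others. Pdgfc, a ligand of Pdgfra, was lower, with 40.2, 74.3 and 150 CPM in members against 331 CPM (-1.97). Vegfa and Egf had ratios of -2.10 and -2.50 without meeting the call in every animal, and Igf1 had 42, 64.0 and 230 CPM against 61.6 CPM (0.49).

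Of 28 measured receptors 10 were higher and none was lower (11 and 3 without the 67 nuclei of a cluster led by Shank2 and Slc28a3). Pdgfrb, known from pericytes and fibroblasts, had 145, 236 and 293 CPM in members against 1.98 CPM (6.19), and the epidermal growth factor receptor Egfr had 1971, 2405 and 3167 CPM against 88.0 CPM (4.78). The oncostatin M receptor Osmr had a ratio of 3.64, and Igf1r had 150, 257 and 322 CPM against 29.0 CPM (2.92). The hormone receptors of lactation did not stand out in members. Ghr had 530 CPM at the median against 568 CPM (-0.24), Prlr 72.5 against 243 CPM (-1.80) and Esr1 316 against 561 CPM (-0.83), none of which met the call. The 4 measured inhibitors of growth factors (Fstl1, Igfbp7, Igfbp4 and Spry2) were all higher, with ratios of 5.11, 3.39, 2.85 and 1.70.

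Transcription factor genes of stromal cells were higher for 13 of 22 measured. Ebf1, a factor of adipose progenitors and B cells, had 2429, 3551 and 3952 CPM in members against 101 CPM (5.11), and its relative Ebf2 had 308, 435 and 682 CPM against 14.9 CPM (4.68). Tbx15, a factor of subcutaneous fat depots, had 168, 326 and 411 CPM against 3.81 CPM (5.81), and Gli2, which reads hedgehog signals, had a ratio of 5.35. Zeb1, Prrx1 and Tcf4 had ratios of 5.08, 4.93 and 3.16. Runx1 was lower, with 15, 70.8 and 121 CPM in members against 305 CPM (-1.94). Of guidance and adhesion genes 14 of 17 measured were higher, among them both sides of the Slit and Robo pathway. Slit3 had 1425, 2049 and 2876 CPM against 64.3 CPM (4.75), Robo1 had a ratio of 5.11, and Robo2 had 347, 466 and 841 CPM against 3.90 CPM. Sema3a, a repellent ligand, had 186, 379 and 522 CPM against 3.12 CPM (6.36). Of complement and chemokine genes 5 of 6 measured were higher, led by the C1 inhibitor Serping1 (5.23), the C1 protease gene C1s1 (5.10) and the eosinophil chemokine Ccl11 (4.60), while Cfd did not meet the call (-0.51).

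The list of committed preadipocyte genes was divided. Of 13 measured 6 were higher: Bmper (216, 311 and 430 CPM; 6.42), Col15a1, Col4a1, Ggt5 (4.94), Sparcl1 (4.58) and Gsn, which severs actin (305, 655 and 1085 CPM against 41.3 CPM; 3.94). The adipogenic regulator Pparg did not meet the call, with 60.2, 165 and 254 CPM in members and 70.3 CPM in non-fibroblast nuclei (1.10). Lpl, which releases fatty acids from lipoproteins, had 467, 568 and 872 CPM against 791 CPM (-0.61), and the fatty acid transporter Cd36 had 252, 499 and 745 CPM against 1495 CPM (-1.67). Of the contractile and myofibroblast list 4 of 5 measured genes were higher: the protease gene Fap (495, 607 and 913 CPM; 5.56), Postn, the metalloprotease gene Adam12 (3.37) and the actin-binding gene Cald1 (2.67), while Acta2, the actin of myofibroblasts, had only 21 UMIs over the members. None of the 16 cell cycle genes reached 50 UMIs in members, and Mki67 had 21 UMIs.

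Lipid genes had the lowest median of the lists other than cell type markers, -1.03, against 0.19 for all genes. Of 20 measured, the 4 that were higher are all lipid transporters of the ABC family: Abca8a, a gene of the rule, Abca8b (4.84), Abca9 (3.74) and Abca1 (2.74). Acsl1, which activates long-chain fatty acids, had 189, 771 and 1745 CPM in members against 2512 CPM (-1.81) and was lower, as was the elongase Elovl6 (-1.49). Acaca, the first enzyme of fatty acid synthesis, had 735, 2064 and 3239 CPM against 6392 CPM (-1.72), not called. No clock gene met the call, with Rora nearest (1682, 2533 and 2928 CPM against 667 CPM; 1.93), and of oxytocin and Gq signalling genes only the protein kinase C gene Prkca did (147, 231 and 346 CPM against 50.4 CPM; 2.20).

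Milk transcripts were abundant in members. Casein beta (Csn2) had 27119, 29354 and 35891 CPM in members against 43496 CPM in non-fibroblast nuclei (-0.48), and Wap, a whey protein gene, had 18431, 19120 and 21221 CPM against 19462 CPM (0.02). The milk protein share was 11.5% of a member's UMIs at the median, 11.0% in Dpp4, Pi16 or Cd55 nuclei and 16.4% in non-fibroblast nuclei. Of the 14 milk protein genes measured 1 was lower, Olah, which ends fatty acid chains at medium length (241, 757 and 1638 CPM against 3271 CPM; -2.12). Markers of secretory luminal cells summed to 71576, 77404 and 89557 CPM in members against 113302 CPM. Their part in the levels of other genes was not tested.

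Marker sums of the other cell types lay near or below those of non-fibroblast nuclei, apart from the pericyte list. Lymphocyte markers summed to 5.99, 15 and 54.2 CPM in members against 70.2 CPM in non-fibroblast nuclei, with 6 of 10 at 0, and mesothelial markers to 0, 0 and 53.6 CPM against 22.4 CPM. Myoepithelial markers summed to 0, 69.7 and 218 CPM against 299 CPM, and vascular endothelial markers to 0, 21.1 and 114 CPM against 48.0 CPM. Macrophage markers were similar in both classes, with 97.8, 173 and 292 CPM against 151 CPM. The adipocyte list summed to 609, 803 and 1072 CPM against 1084 CPM, of which 3 of 10 genes were measured (Pparg, Ghr and Pnpla2) and 1 was at 0. The pericyte list summed to 207, 353 and 504 CPM against 223 CPM, with Pdgfrb as its only measured gene. The Schwann cell list summed to 444, 586 and 737 CPM against 537 CPM, with the sodium channel gene Scn7a higher in members (3.59), and the lymphatic list to 45.1, 76.9 and 108 CPM against 57.5 CPM, with podoplanin (Pdpn) higher (4.32).

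The genes of lowest ratio, chosen among genes with at least 50 UMIs over both classes together, included 5 genes known from adipocytes, and the rule itself left out nuclei with over 1 UMI summed over Adipoq, Pecam1, Ptprc and Trp63. No UMI was found in members with 1 named animal for Pck1, which feeds glycerol synthesis, for the lipid droplet gene Plin1 or for the adrenergic receptor Adrb3, whose median levels in non-fibroblast nuclei were 69.3, 25.3 and 31.0 CPM. Over the 983297 UMIs of members with 1 named animal a count of 0 allows up to 3.05 CPM. Over all 734 members, whatever their hashtags, Pck1, Plin1 and Adrb3 had 6.68, 6.68 and 5.85 CPM. All non-fibroblast nuclei had 65.1, 24.6 and 30.5 CPM. In members with 1 named animal, Cidec, which enlarges lipid droplets, and Nrg4, a ligand released by fat, had 2 UMIs each. Their median levels in non-fibroblast nuclei were 55.2 and 45.6 CPM. Over all members Cidec had 5.85 CPM and Nrg4 had 16.3 CPM, against 48.1 and 50.7 CPM in all non-fibroblast nuclei. In members with 1 named animal, Fgf14 and Dock2 had 1 UMI each, Fgd6 and Slc18a1 had 2 each and Tmem44 had 3. Median levels in non-fibroblast nuclei were 37.9, 25.0, 28.5, 19.7 and 29.0 CPM.

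**Figure D2:**
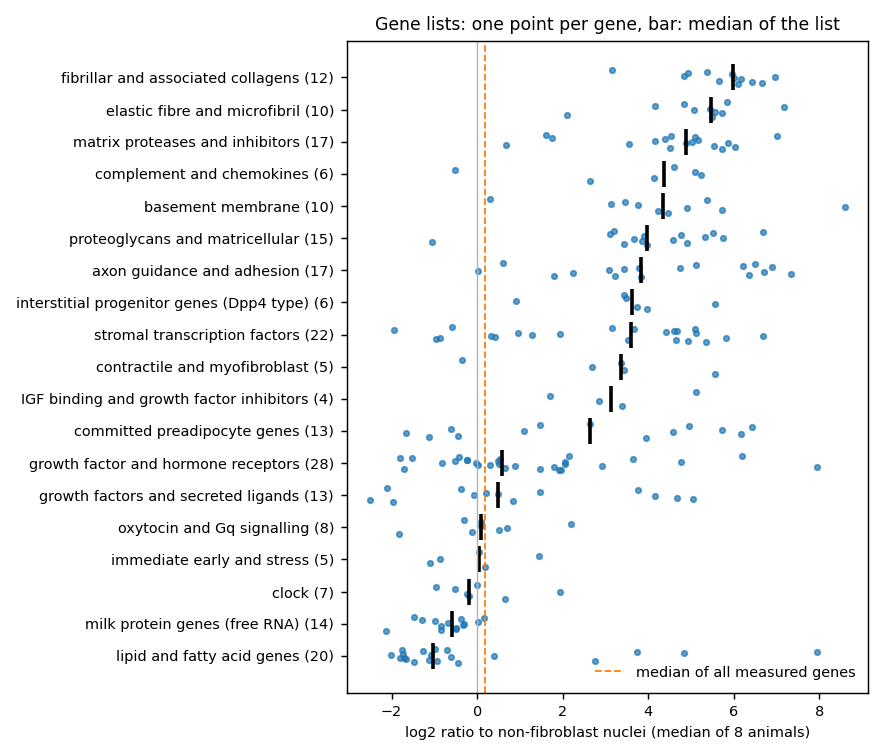
Median log2 ratio of members over non-fibroblast nuclei for the genes of each list with at least 4 measured genes; each point is a gene, the bar is the list's median and the dashed line the median of all measured genes (0.19). Collagen and elastic fibre genes sit high, with medians of 5.98 and 5.47, and lipid genes lie mostly below the line, with a median of -1.03.

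Against the Dpp4, Pi16 or Cd55 nuclei the differences were fewer. The genes counted had at least 50 UMIs over both classes, with the rule's genes and Gm-number or Rik symbols left out. Of these 7259 genes, 188 (2.59%) were higher in members in every animal and 166 (2.29%) were lower in every animal. Any difference of the same sign counted. Because 3 genes defined the classes, genes that go with them had to differ, and no test was run. Gpr176, known in mice as a receptor of the central clock, stood at 138 CPM in members against 28.2 CPM in Dpp4, Pi16 or Cd55 nuclei, a median log2 ratio of 2.50 (1.27 to 3.34). Egflam stood at 273 against 82.7 CPM (1.57) and Sparcl1, a matricellular gene of the preadipocyte list, at 83.1 against 24.0 CPM (1.70). The other high genes were Cacnb2 (28.6 against 6.08 CPM; 2.63), Irag1 (2.19), Col25a1 (1.68), Il34 (1.55), Col13a1 (1.53), the pseudogene Nlrp5-ps (1.51), Fmo1 (163 against 67.4 CPM), Mmp11 (1.49) and Ripor3 (1.48).

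The low genes included further genes of the progenitor list. Sema3c had 0, 22.8 and 59.9 CPM in members, against a median of 423 CPM in Dpp4, Pi16 or Cd55 nuclei (-3.92), and Anxa3, an annexin, had a ratio of -3.64 with 230 CPM there. The next counts are UMIs in nuclei with 1 named animal, out of 983297 UMIs in members and 1978407 in Dpp4, Pi16 or Cd55 nuclei. The totals differ, so the counts are not a ratio of levels. Limch1, an actin-binding protein gene, had 9 UMIs in members against 215, and the bone morphogenetic protein gene Bmp6 had 3 against 97. Galnt16 had 3 UMIs in members against 174, Arhgef28 had 4 against 118, Smpd3 had 5 against 154 and Tmem100 had 4 against 94. Adamtsl3 and Car8 had 1 UMI each in members, against 80 and 70, while Efhd1 had 5 against 78 and Mgll had 6 against 83. Over all nuclei of both classes, whatever their hashtags, each of these genes was also lower in members. Galnt16 then had 12.1 against 112 CPM and Limch1 10.0 against 139 CPM. Leaving out Dpp4, Pi16 and Cd55, which the rule set to 0 in members, 14 progenitor genes were measured, of which 7 were lower and 1 was higher in members, with a median ratio of -2.2. Of 13 preadipocyte genes 5 were higher and 1 lower, and of 13 collagens 4 were higher and none lower. Basement membrane genes were higher for 3 of 15, lipid genes lower for 4 of 23, and no milk protein gene differed in every animal.

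Depth differed between the fibroblast classes, so each nucleus was also thinned to 1000 UMIs, which kept 721 members, 954 Dpp4, Pi16 or Cd55 nuclei and 18207 non-fibroblast nuclei and left out 13, 6 and 825. In thinned nuclei Egflam was found in 20.8% of members, 6.29% of Dpp4, Pi16 or Cd55 nuclei and 0.24% of non-fibroblast nuclei. Gpr176 stood at 9.99%, 1.89% and 0.15%, Slit2 at 46.6%, 23.6% and 0.85%, and Ifi205 at 42.7%, 31.5% and 0.37%. In the other direction, Sema3c was found in 3.33% of members and 34.9% of Dpp4, Pi16 or Cd55 nuclei, and its share in non-fibroblast nuclei, 3.31%, was as large as that in members. Anxa3 stood at 2.64%, 29.7% and 1.38%, Opcml, an adhesion protein gene, at 6.93%, 44.6% and 1.65%, and the transcription factor gene Creb5 at 30.5%, 56.7% and 4.54%. Creb5 thus remained well above the non-fibroblast level in members.

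**Figure D3:**
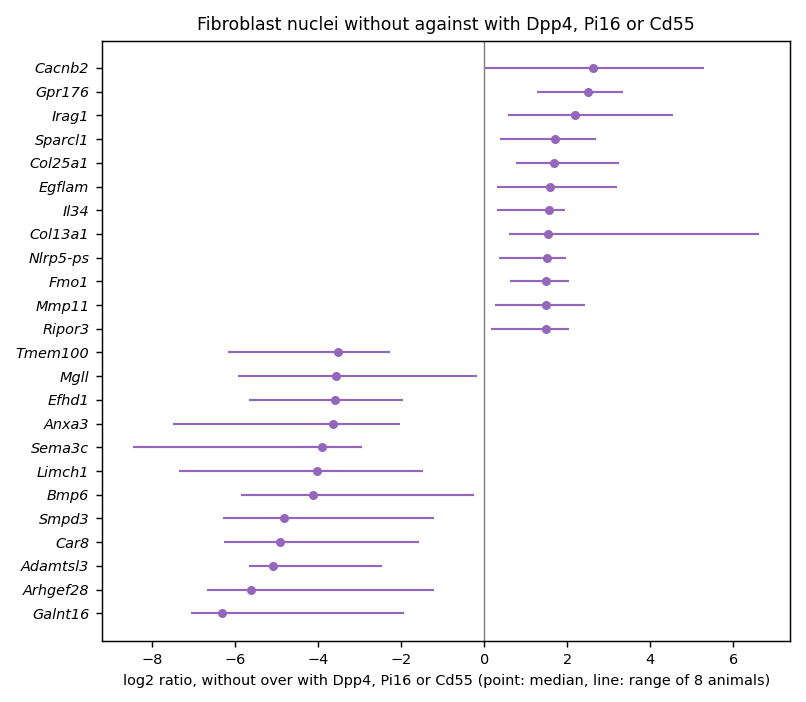
The 12 genes with the highest and the 12 with the lowest log2 ratio of members over Dpp4, Pi16 or Cd55 nuclei. The rule's genes and Gm-number or Rik symbols were left out. Points are medians and lines the range over 8 animals. Gpr176 has a median of 2.50 and Sema3c one of -3.92, and the low genes rest on few UMIs in members.

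The members were not uniform. Leiden clustering of the 684 members that carried at most 1 hashtag gave 6 clusters, 3 at a coarser and 10 at a finer resolution, and their leading genes are a description, since the clusters were made from them. Cluster 1 was the largest with 313 nuclei (45.8%), held 28.1 to 48.3% of the members of every animal, and was led by Chn1, a Rac GTPase-activating protein gene (97.9 CPM, against 12.6 CPM in the other members), followed by Capn6 and F13a1. Cluster 3, with 193 nuclei (28.2%; 14.7 to 35.7% per animal), was led by Opcml (312 against 53.8 CPM) and Fgf10 (399 against 75.5 CPM) with Ntf3, a neurotrophin. Cluster 2, with 84 nuclei (12.3%; 0 to 22% per animal), was led by Mfap4, a microfibril protein (243 against 11.2 CPM), and Eln (1121 against 137 CPM). The elastic fibre list summed to 5632 CPM in cluster 2 and to 1538 to 3210 CPM in the other 5.

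Cluster 4 stood apart from the others. Its 67 nuclei (9.80%; 7.14 to 32.3% per animal) had a median of 5720 UMIs, and 26.9% lacked a hashtag. It was led by Shank2, a scaffold protein gene (520 against 20.4 CPM), Cytip and Slc28a3, a nucleoside transporter (7272 against 415 CPM), and also held Acsl1 (1967 against 143 CPM) and the uncoupling protein gene Ucp3. Fibroblast markers summed to 6442 CPM there, against 12008 to 23315 CPM in the other clusters, while the lipid list summed to 16210 CPM against 3874 to 5934 CPM. Secretory luminal markers summed to 95387 CPM, against 74735 to 86015 CPM in the others. Nuclei of the same animal caught together cannot be seen by hashtags, and their part in this cluster was not tested. Of its nuclei 49 had 1 named animal, among 254 such members, so it made up a larger part of the values per animal than of all members. Its part of the UMIs summed per animal was larger still, since its nuclei were the deepest. Levels per animal above and genotype values below include these nuclei unless stated. Without these nuclei 252 of all genes measured were lower than in non-fibroblast nuclei, against 31 with them, and 10 of the 20 lipid genes, 4 of 14 milk protein genes, 3 of 28 receptors and 3 of 13 ligands were among them. The median of the lipid list was then -1.73. In the same setting 389 genes were higher and 624 lower in every animal than in Dpp4, Pi16 or Cd55 nuclei, against 188 and 166 with them. Collagens (12 of 12 higher), elastic fibre genes (10 of 10) and basement membrane genes (9 of 10) gave the same counts without them, while proteoglycan genes were 13 higher and 1 lower of 15 and protease genes 15 higher of 17.

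Both small clusters carried genes of other stromal or epithelial types. Cluster 5 (18 nuclei; 0 to 10.5% per animal) had the protocadherin gene Pcdh11x among its leading genes and held F3, the tissue factor gene (978 against 20.6 CPM), and the list of F3 type stromal genes summed to 3833 CPM there and to 209 to 700 CPM elsewhere. Cluster 6 (9 nuclei; 0 to 5.88% per animal) was led by Fhod3, a formin gene, and Myh11, smooth muscle myosin (1162 against 12 CPM), with myoepithelial markers at 1756 CPM against 28.3 to 50.9 CPM in the other clusters and the pericyte and smooth muscle list at 1291 CPM against 183 to 519 CPM; Myh11 is in both lists. At this number of nuclei the levels of clusters 5 and 6 are imprecise.

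**Figure D4:**
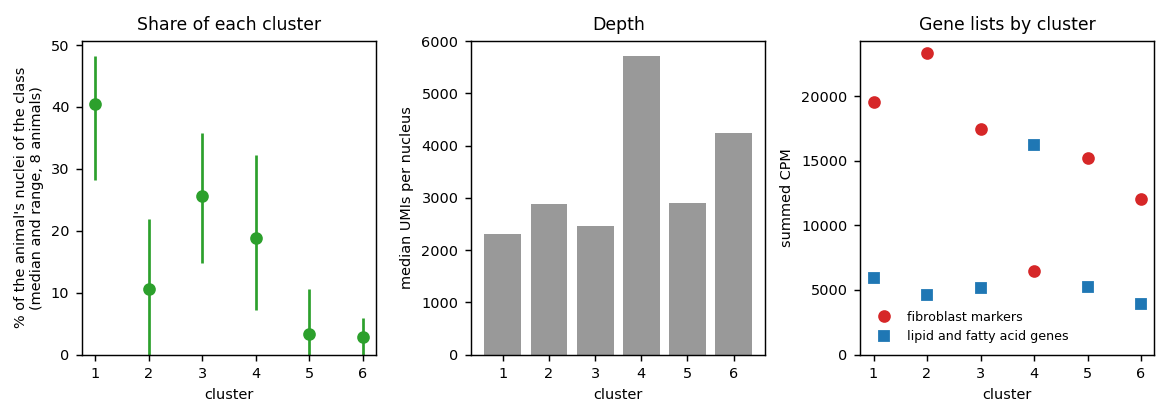
Clusters of member nuclei: the share of an animal's members in each cluster (percent, median and range of 8 animals), the median UMIs of its nuclei, and the summed CPM of the fibroblast markers and of the lipid list. Cluster 4 has the deepest nuclei (5720 UMIs), the lowest fibroblast sum (6442 CPM) and the highest lipid sum (16210 CPM).

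Members of Oxtr-KO animals were also compared with members of WT animals. The share of members among an animal's nuclei was 1.77, 1.91, 2.25 and 2.88% in Oxtr-KO animals 1 to 4, against 1.81, 1.29, 1.44 and 2.74% in WT animals 1 to 4, and the genotypes overlapped. The means were 2.20 ± 0.496% in Oxtr-KO and 1.82 ± 0.652% in WT animals (SD, n = 4 each; difference 0.378, two-sided exact permutation p = 0.4). The smallest p that 4 against 4 animals can give is 0.0286. In these pooled nuclei, fewer cells of a type and fewer recovered or hashtagged nuclei cannot be told apart. Members made up 41.0 ± 3.97% of fibroblast nuclei in Oxtr-KO and 43.0 ± 6.99% in WT animals (exact permutation p = 0.657, n = 4 each). Depth of members differed by less than its spread, with a median of 3195.5 ± 190 UMIs in Oxtr-KO and 3103 ± 210 UMIs in WT animals (exact permutation p = 0.486). Milk protein UMIs were 10.8 ± 1.29% of members' UMIs in Oxtr-KO and 10.6 ± 0.545% in WT animals (exact permutation p = 0.771). Mitochondrial UMIs were 0.151% in Oxtr-KO and 0.212% in WT members (exact permutation p = 0.0571).

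Gene by gene, no genotype difference in members passed the test. The quasi-likelihood test of edgeR on UMIs summed per animal, with Benjamini-Hochberg adjustment over 2516 genes, called 0 genes (0%). Before adjustment 79 had p under 0.05, and DESeq2 also called 0, with 38 before adjustment. Both are smaller shares of the 2516 genes than the 0.05 that chance alone gives. Each animal gave only 21 to 41 members and 74649 to 167034 UMIs, which limits the size of difference that can be seen. Without WT 2, the animal with the fewest members, edgeR also called 0 genes, with 85 before adjustment. The animals of the genotypes did not overlap for 61 genes (2.42%). This is below the share of 0.0286 that chance alone gives for 4 against 4 animals, so a lack of overlap below only describes the values. A test of whether the genotype difference in members differed from that in non-fibroblast nuclei called 0 of 2516 genes. It had 140 unadjusted, near the share that chance alone gives. The genes of smallest p are therefore given as values, all with adjusted p between 0.994 and 0.999 in edgeR. Genotype levels are CPM scaled with edgeR's TMM factors.

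Gsn had the smallest p of the genes lower in Oxtr-KO members. It stood at 317, 467, 502 and 574 CPM in Oxtr-KO animals 1 to 4, against 895, 1109, 727 and 779 CPM in WT animals 1 to 4, so that every Oxtr-KO animal lay below every WT animal. The log2 fold change was -0.91 (SE 0.227, adjusted p = 0.994, edgeR). In non-fibroblast nuclei Gsn had a log2 fold change of 0.26, and the test of the difference between the classes gave -1.15 (adjusted p = 0.297, edgeR). Without cluster 4, an alternative chosen after the clusters were seen, Gsn was the only gene called of 1395 (log2 -1.01, adjusted p = 0.0465, edgeR), and over all 19 alternatives its adjusted p ran between 0.0465 and 1.00 and its log2 fold change between -1.03 and -0.53. Those values rest on 24, 26, 26 and 35 nuclei of Oxtr-KO animals and 21, 17, 23 and 33 of WT animals.

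G0s2, an inhibitor of the fat cell lipase Pnpla2, was second. It had 355, 408, 145 and 230 CPM in Oxtr-KO members against 1314, 781, 727 and 288 CPM in WT members, with WT 4 inside the Oxtr-KO range (log2 -1.43, SE 0.370, adjusted p = 0.994, edgeR). G0s2 had a log2 fold change of -1.14 in non-fibroblast nuclei as well. Its value in members moved with cluster 4, being -0.48 without it (adjusted p = 0.882, edgeR). It was -1.03 without WT 1, the highest animal (adjusted p = 0.996, edgeR). Without WT 4, the lowest WT animal, it was -1.71 (adjusted p = 0.0499, edgeR). With all 10 hashtags used in the calls it was -0.74 (adjusted p = 0.829, edgeR). Opcml, a leading gene of cluster 3, had 37.3, 51.9, 86.8 and 20.3 CPM in Oxtr-KO members against 63.3, 192, 213 and 83.2 CPM in WT members (log2 -1.48). The ephrin gene Efna5 had 93.3, 81.6, 19.3 and 54.0 CPM in Oxtr-KO members against 127, 247, 136 and 114 CPM in WT members, without overlap. Clec2d, Gm46329, Iigp1 and Asxl1 had log2 fold changes of -0.84, -0.97, -1.87 and -0.78, and Iigp1 reached 401 CPM in WT 4 alone. Without cluster 4, Opcml, Efna5 and Iigp1 did not pass the filter on low counts and were not tested. Clec2d, Gm46329 and Asxl1 then had log2 fold changes of -0.66, -0.83 and -0.90, none of them called.

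Larp4, an RNA-binding protein that protects messenger RNA tails, had the smallest p of the genes higher in Oxtr-KO members. It stood at 193, 148, 174 and 101 CPM in Oxtr-KO animals against 55.4, 27.4, 67.9 and 75.7 CPM in WT animals (log2 1.36, SE 0.337, adjusted p = 0.994, edgeR). The autophagy receptor gene Nbr1 had 261, 193, 145 and 169 CPM in Oxtr-KO members against 119, 110, 87.2 and 90.8 CPM in WT members (0.93). Sec24d, a coat subunit of the vesicles that carry procollagen out of the endoplasmic reticulum, had 498, 623, 482 and 486 CPM against 333, 329, 301 and 341 CPM (0.68), and the splicing factor gene Ptbp2 had 205, 223, 145 and 196 CPM against 111, 82.2, 116 and 114 CPM (0.84). The genotypes did not overlap for these 4 genes. Plcb4, a phospholipase of the Gq pathway, and Nhsl1 had log2 fold changes of 1.01 and 0.83, also without overlap, while Tnfaip8 and the cluster 4 gene Ucp3 had 1.31 and 1.13. Without cluster 4, Larp4, Nbr1, Plcb4, Tnfaip8 and Ucp3 did not pass the filter on low counts, so their differences were not tested outside that cluster. Sec24d, Ptbp2 and Nhsl1 then had log2 fold changes of 0.85, 0.74 and 1.40, none of them called.

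**Figure D5:**
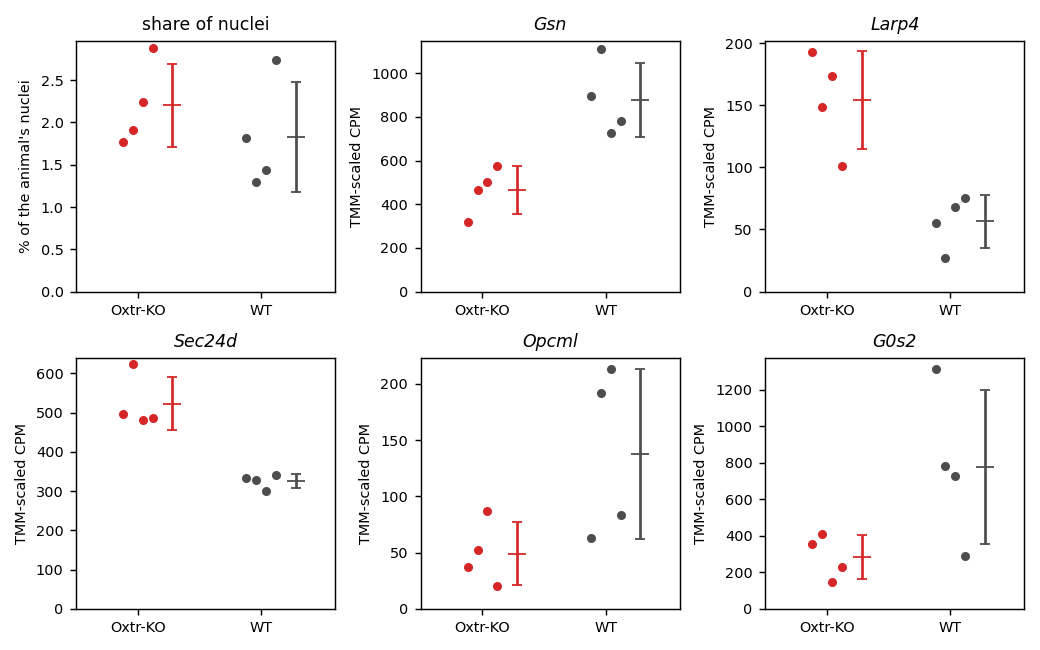
Share of members among an animal's nuclei (percent) and TMM-scaled CPM of Gsn, Larp4, Sec24d, Opcml and G0s2 in members; each point is an animal, Oxtr-KO left of WT, with the mean and SD of 4 animals. Gsn lies between 317 and 574 CPM in Oxtr-KO animals and between 727 and 1109 CPM in WT animals, and no gene passed the test.

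The lists gave no call either, and their medians lay near the median of all genes tested, 0.01. The F3 type stromal list, with only 2 genes tested, had a median of -0.42. Of the lists with more genes tested, elastic fibre genes were furthest from the median of all genes, with 2 higher and 7 lower among 9 tested and a median log2 fold change of -0.30, led by Fbn2 (-0.80). Collagens had 6 higher and 5 lower (median 0.07) and basement membrane genes 5 higher and 3 lower (0.02). Lama2 had a log2 fold change of 0.09 (SE 0.171), Slit2 of 0.36 (SE 0.219), Col1a1 of 0.11 and Pdgfra of -0.18. Protease genes had 5 higher and 10 lower (-0.06), with Adamts5 at -0.62, and proteoglycan genes 6 and 6 (-0.06), with fibronectin (Fn1) at 0.85 and Dcn at -0.51. Receptors had 12 higher and 16 lower (-0.07), with Prlr at 0.98 and Vdr at 0.90. Vdr was also a leading gene of cluster 4 (368 against 16.7 CPM in the other members). The part of cluster 4 in these 2 values was not tested. Preadipocyte genes had 6 and 6 (-0.09), lipid genes 9 and 7 (0.11), milk protein genes 5 and 8 (-0.01) and oxytocin and Gq signalling genes 3 and 4 (-0.16). None of these values was called.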

How the data were processed

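Per the labels, nuclei of frozen inguinal fat pads were pooled in 1 10x Genomics library with hashtags, and some preparations, not said which, were washed against free RNA. The authors deposited raw UMI counts per gene and nucleus, and hashtag read counts per UMI, which were counted as lines. Deposited text columns (other values: barcodes, symbols, hashtag names) only joined the tables. The submitters' processing notes name fastp, Cell Ranger 7.2.0 and GRCm39. No source used here gives the annotation release, and 36 symbols occur more than once.

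Nuclei with at least 500 UMIs, 300 genes and under 5% mitochondrial UMIs were kept. Animals were called with HTODemux (Seurat 5.3.0, centred log ratios across barcodes, positive quantile 0.99) on 9 of 10 hashtags, without Unknown_sample1. UMIs were summed per animal and class. The animal is the replicate. No doublet caller was run, and members with more than 1 hashtag entered neither clusters nor sums. Clusters used scanpy 1.11.5 under Python 3.11.15 (2000 variable genes without milk protein and mitochondrial genes, 20 components, 15 neighbours, resolution 0.5).

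Genotypes were compared with edgeR 4.0.16 under R 4.3.3 (TMM, filterByExpr, threshold 0.05) and DESeq2 1.42.0. The edgeR steps, but not DESeq2, were tested on simulated data. Single values used two-sided exact permutation tests over 4 against 4 animals. Named against non-fibroblast nuclei were the 30 highest and 10 lowest genes, and against Dpp4, Pi16 or Cd55 nuclei the 12 highest and 12 lowest. These rankings, and those of cluster genes, left out symbols that are Gm with a number or end in Rik. The class rankings also left out the rule's genes. Also named were the 8 of smallest p in each genotype direction, and list genes by ratio, p or role. Members and lists were chosen with earlier results of these data known. The hashtag numbers did not pair the samples. Some items are not reported here.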

Additional observations from a re-analysis of the deposited data

Results flagged for a closer look

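In 50 groups of 4 animals, the value farthest from the others was set against the group's range; chance marks about 1 in 20 groups, and 4 were marked here. The milk protein share of non-fibroblast nuclei in Oxtr-KO animals was 11.7% in Oxtr-KO 3, against 16.4 to 16.9% in the other 3 Oxtr-KO animals. In members, Sec24d was highest in Oxtr-KO 2 with 623 CPM, against 482 to 498 CPM in the other Oxtr-KO animals. Ptbp2 was lowest in WT 2 with 82.2 CPM, against 111 to 116 CPM in the other WT animals, and Efna5 was highest in WT 2 with 247 CPM, against 114 to 136 CPM. WT 2 is also the animal with the fewest members.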

How the results depend on the processing

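Genes higher than in non-fibroblast nuclei numbered 591, and 383 after thinning to 1000 UMIs (373 of them shared), with 594 to 610 when 1 animal was left out. Genes lower numbered 31, against 312 without use of hashtags, 52 with milk protein genes left out of the totals, 252 without cluster 4, 105 after thinning and 31 to 86 when 1 animal was left out (86 without Oxtr-KO 1). Against Dpp4, Pi16 or Cd55 nuclei, 188 genes were higher; there were 389 without cluster 4, 62 after thinning (36 shared) and 207 to 292 with 1 animal left out (292 without Oxtr-KO 1). Lower genes numbered 166, against 624 without cluster 4, 72 after thinning (32 shared) and 200 to 268 with 1 animal left out (268 without Oxtr-KO 1 and without Oxtr-KO 2). Cluster 4 was taken out of the members only. These calls need the ratio in every animal, so leaving out 1 animal could only keep or add calls. Without use of hashtags a call rested on 1 pooled ratio and not on every animal. Genotype calls numbered 1 without cluster 4 (Gsn), 7 of 16676 genes with no filter on low counts (1 higher in Oxtr-KO and 6 lower, among them G0s2 and Iigp1) and 0 to 1 with 1 animal left out (G0s2, without WT 4). The difference in milk protein share, 0.222, turned to -0.352 without Oxtr-KO 1 and -0.0340 without WT 4, and ran between -0.352 and 0.591 with 1 animal left out. The difference in member share stayed positive in every alternative run. Replicate numbers are shared by name only: same-numbered animals correlated at 0.160, -0.0195, -0.0277 and 0.120, each best with its own number in 2 of 4, and the replicate block gave 0 calls (91 unadjusted), with exact p of 0.25 for the member share and 0.625 for the milk protein share. With 1 animal left out, an adjusted p moves with the genes tested too; the cause of the changes was not tested. With 21 to 41 members an animal, 2516 genes had enough UMIs to be tested.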
